A study of Danio rerio with 16 samples.

Results

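The genes described here encode hormones of the pituitary gland: growth hormone (gh1), prolactin (prl), the somatolactins (smtla and smtlb) and the alpha subunit shared by the glycoprotein hormones (cga). They were chosen by gene name, and 4 of the 5 were found among 26183 genes with reads. smtla was not analysed here. RNA was sequenced from zebrafish (Danio rerio) at the larval stage, aged 7 days, after 7 days of exposure. Per the labels and the design text there were 16 libraries in 4 groups, given dimethyl sulfoxide as solvent control (n = 4) or PFBA, which stands for perfluorobutanoic acid, at 0.1 µg/L (n = 3), 1 µg/L (n = 4) or 10 µg/L (n = 5). PFBA is a fluorinated carboxylic acid with a short carbon chain. The labels name no strain, genotype or sex and do not say how many larvae each library held or whether the libraries came from separate tanks, so p-values measure the spread between these libraries only.

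The anterior pituitary releases growth hormone, which binds receptors in liver, muscle and other tissues, signals through the kinase Jak2 and the Stat5 factors, and drives production of the growth factor Igf1. Prolactin is a related protein that in freshwater fish maintains ion uptake through skin and gill ionocytes, and somatolactins are fish members of the same family, made in the posterior part of the gland and linked in medaka to pigment cells. The product of cga pairs with a different beta subunit to form thyrotropin, follitropin or lutropin. Hypothalamic peptides and dopamine reach the pituitary and set how much of each hormone is released.

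Total counts were 9708464 to 13862232 reads per library. Libraries stood apart in 2 ways. Libraries 1 and 2 at 0.1 µg/L had scaling factors of 0.58 and 0.74, against 0.93 to 1.14 in the other 14. Skeletal muscle markers summed to 102585 and 65524 CPM (counts per 10⁶ reads of scaled library size) in these 2 libraries. They summed to 27555 CPM in library 3 at 0.1 µg/L, within the 6068 to 32846 CPM of controls. Library 5 at 1 µg/L did not share the pattern of its group in the clock gene nr1d1, which encodes a repressor of the circadian oscillator: it held 617 CPM, and the other 3 libraries at that dose held 19.0 to 26.5 CPM. nr1d1 lay at 547 to 762 CPM in controls, 546 to 657 CPM at 0.1 µg/L and 29.9 to 52.3 CPM at 10 µg/L. The clock gene per1a did differ within the 0.1 µg/L group. It held 15.9 and 22.9 CPM in libraries 1 and 2 and 80.1 CPM in library 3, against 65.3 to 87.0 CPM in controls. The labels give no hour of sampling. Markers of many larval tissues were present: every tested marker of neurons (10 of 10), photoreceptors (9 of 9), lens (9 of 9) and liver (7 of 7) had reads in all 16 libraries, as did 7 of 8 for skeletal muscle, 6 of 7 for intestine and 5 of 7 for skin.

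Per the labels the RNA came from larvae, with no dissection named, and the hormone genes had few reads. Over the 16 libraries gh1 collected 543 reads, smtlb 34, cga 29 and prl 18. gh1 had reads in every library, while smtlb and cga were each at 0 in 6 libraries and prl in 9. A count of 0 allows up to 3 reads, which is 0.208 to 0.373 CPM across these libraries, and this limit covers counting error only. Of the 4 genes, gh1 passed the filter on low counts and could be tested across all 19092 genes that passed. The other 3 are given by their reads. In bulk RNA, fewer hormone cells and less RNA per cell cannot be told apart.

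Per gene length, gh1 stood above the other 3 in every library. CPM per kilobase, which divides CPM by the deposited gene length, averaged 2.31 for gh1 (range 0.71 to 5.86), 0.195 for smtlb (0 to 0.551), 0.0777 for cga (0 to 0.463) and 0.0715 for prl (0 to 0.355). The lowest gh1 value thus exceeded the highest value of smtlb, cga and prl, whose ranges overlapped one another. On the scale of CPM per kilobase, 54.6% of all genes had a lower mean than gh1, 22.4% lower than smtlb, 13.6% lower than cga and 12.8% lower than prl. Other genes listed as pituitary hormones had lower means than gh1. pomcb, a precursor of corticotropin and melanotropin, averaged 0.933 CPM per kilobase, and the second prolactin gene prl2 averaged 0.893 CPM per kilobase, and the ranges of both overlapped that of gh1. tshba, the beta subunit of thyrotropin, averaged 0.337 CPM per kilobase. The other 5 hormones measured, pomca, fshb, lhb, gpha2 and gphb5, were each at 0 in 5 to 14 libraries.

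**Figure D1:**
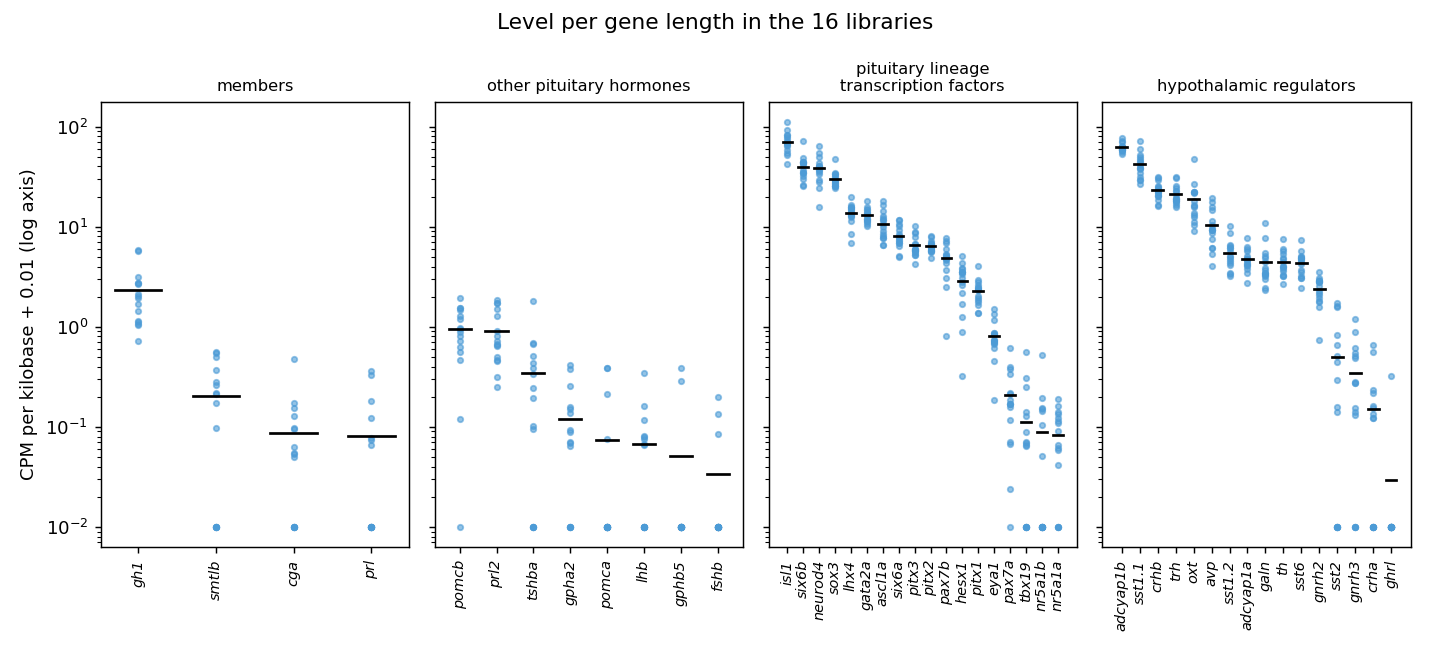
CPM per kilobase plus 0.01 of each gene (log axis) in the 16 libraries, with 1 point per library and a bar at the mean. The panels hold the hormone genes described, other genes listed as pituitary hormones, transcription factors of the pituitary lineage and hypothalamic regulators. gh1, with a mean of 2.31 CPM per kilobase, is the highest of the hormone genes, and points at the bottom of the axis are libraries with 0 reads.

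gh1 lies on chromosome 3 at 22327738 to 22332913 on the plus strand (build GRCz11, identifier ENSDARG00000038185). prl (ENSDARG00000037946) lies on the same chromosome and strand at 32341917 to 32345900. smtlb (ENSDARG00000017251) lies on chromosome 10 at 39314578 to 39321367 on the minus strand. cga (ENSDARG00000040479) lies on chromosome 17 at 49439219 to 49443399 on the minus strand. None of the 4 overlapped another listed gene. A gene listed as CGA and described as like the glycoprotein hormone alpha chain lies close to cga, at 49452032 to 49452502 on the plus strand of chromosome 17, and had 6 reads over the 16 libraries. Whether counting moved reads between the copies is not visible in the counts.

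gh1 varied widely within each group. Control libraries 1, 3, 4 and 5 held 17, 17, 46 and 41 reads of gh1, and libraries 1 to 3 at 0.1 µg/L held 16, 12 and 27. Libraries 1, 2, 4 and 5 at 1 µg/L held 22, 9, 17 and 87 reads of gh1, and libraries 1 to 5 at 10 µg/L held 34, 48, 26, 78 and 46. The highest counts, 87 and 78, came from library 5 of the 1 µg/L group and from library 4 of the 10 µg/L group. Control libraries 4 and 5 had more reads than control libraries 1 and 3. Scaled for library size, gh1 averaged 2.26 ± 1.13 CPM in controls, 1.85 ± 0.553 CPM at 0.1 µg/L, 2.69 ± 2.79 CPM at 1 µg/L and 3.79 ± 1.88 CPM at 10 µg/L (SD, n = 4, 3, 4 and 5). The groups overlapped with control at every dose. At 10 µg/L the values of gh1 ran from 2.42 to 7.02 CPM, against 1.24 to 2.33 CPM at 0.1 µg/L, with no overlap.

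**Figure D2:**
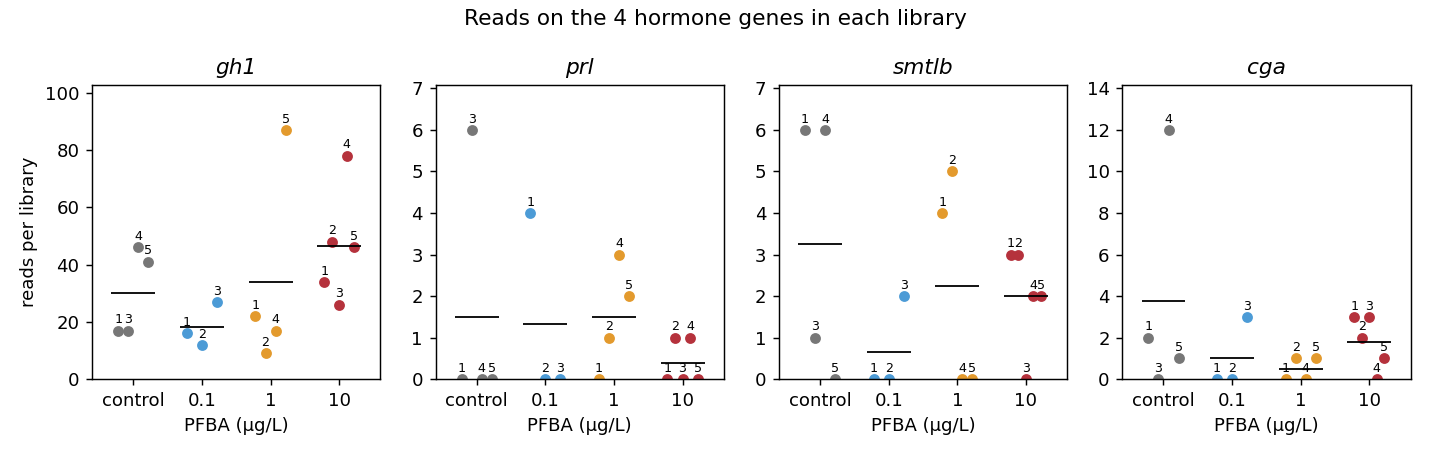
Reads of gh1, prl, smtlb and cga in each library, by PFBA dose, with the library number beside each point and a bar at the group mean. Every gh1 library has reads and the highest are 87 and 78, whereas prl, smtlb and cga have at most 12 reads and many libraries at 0.

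No difference in gh1 passed the test at any dose. At 10 µg/L gh1 was 1.67-fold the control level, a log2 fold change of 0.74 (SE 0.55, 95% interval -0.41 to 1.89), with an adjusted p of 0.824 by edgeR's quasi-likelihood test. At 1 µg/L the log2 fold change of gh1 over control was 0.25 (SE 0.57, 95% interval -0.96 to 1.46, edgeR adjusted p = 0.998). It rested on library 5: without that library the log2 fold change was -0.78, with an edgeR adjusted p of 0.864. At 0.1 µg/L it was -0.28 (SE 0.64, 95% interval -1.63 to 1.07, edgeR adjusted p = 0.806), and 0.07 without libraries 1 and 2. As fold over control, the 95% intervals of gh1 ran from 0.322 to 2.10 at 0.1 µg/L, 0.515 to 2.76 at 1 µg/L and 0.751 to 3.71 at 10 µg/L. Run as another tool, limma-voom called gh1 at 0 of the 3 doses. DESeq2 gave gh1 no adjusted p at 0.1 µg/L and did not call it at 1 or 10 µg/L.

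By edgeR with all libraries, calls against control were rare among all genes too. Of the 19092 genes tested, the share called at an edgeR adjusted p below 0.05 was 0% at 0.1 µg/L, 0.0681% at 1 µg/L (13 genes) and 0.225% at 10 µg/L (43 genes). The share at an unadjusted p below 0.05 was 21.8% at 0.1 µg/L (4157 genes), 4.89% at 1 µg/L and 8.23% at 10 µg/L. DESeq2 called 1380 of 13971, 57 of 18028 and 244 of 17521 genes to which it gave an adjusted p at these doses. limma-voom called 0, 22 and 61 of 19092. At 0.1 µg/L the edgeR count was 6256 without library 3, which left the pair of libraries that stood apart, and 105 and 131 genes were called at 1 and 10 µg/L without library 5 at 1 µg/L. Of the hormone genes only gh1 was tested by edgeR with all libraries, and in no comparison with control was it called or at an unadjusted p below 0.05. The authors' deposited table gave gh1 log2 fold changes of -0.22, 0.26 and 0.76 at 0.1, 1 and 10 µg/L, with adjusted p-values of 0.950 and 0.558 at 1 and 10 µg/L. At 0.1 µg/L the authors' unadjusted p for gh1 was 0.694. The deposited adjusted value there exceeds that of socs3a (0.826), whose unadjusted p was higher (0.718), so it is not read as a test result.

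Between doses, gh1 at 10 µg/L was 2.03-fold its level at 0.1 µg/L (log2 fold change 1.02, SE 0.62, edgeR adjusted p = 0.284). In that comparison 10.6% of all genes were called, and 6.41% had every library at 10 µg/L above every library at 0.1 µg/L. gh1 at 1 µg/L differed from 0.1 µg/L by a log2 fold change of 0.54 (edgeR adjusted p = 0.632, 0.194% of genes called), and this became -0.50 without library 5 at 1 µg/L. gh1 at 10 µg/L differed from 1 µg/L by 0.49 (log2; edgeR adjusted p = 1.00), and by 1.53 without that library, with an edgeR adjusted p of 1. There 0% of genes were called by edgeR, with 550 genes at an unadjusted p below 0.05, and DESeq2 called 6. An F test over the 4 groups gave gh1 an edgeR adjusted p of 0.597, where 2.34% of genes were called. A slope over equal dose steps gave 0.27 per step on the log2 scale for gh1 (SE 0.17, edgeR adjusted p = 0.643, 0.288% of genes called).

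prl reads were few and scattered over the doses. prl had 6 reads in control library 3 and 0 in control libraries 1, 4 and 5. At 0.1 µg/L it had 4 reads in library 1 and 0 in libraries 2 and 3. At 1 µg/L it had 0, 1, 3 and 2 reads in libraries 1, 2, 4 and 5, and at 10 µg/L it had 0, 1, 0, 1 and 0 reads in libraries 1 to 5. All groups overlapped. The mean of prl was 0.0335 CPM at 10 µg/L and 0.111 CPM in controls, below what a count of 0 allows in any library.

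smtlb was detected in more libraries than prl but never above 6 reads. It had 6, 1, 6 and 0 reads in control libraries 1, 3, 4 and 5, and 0, 0 and 2 in libraries 1 to 3 at 0.1 µg/L. It had 4, 5, 0 and 0 reads in libraries 1, 2, 4 and 5 at 1 µg/L, and 3, 3, 0, 2 and 2 in libraries 1 to 5 at 10 µg/L. Each exposed group overlapped with control, and the mean was 0.153 ± 0.0925 CPM at 10 µg/L (SD, n = 5) and 0.238 ± 0.235 CPM in controls (SD, n = 4).

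For cga, control library 4 held 12 of the 29 reads. cga had 2, 0, 12 and 1 reads in control libraries 1, 3, 4 and 5, and 0, 0 and 3 in libraries 1 to 3 at 0.1 µg/L. It had 0, 1, 0 and 1 reads in libraries 1, 2, 4 and 5 at 1 µg/L, and 3, 2, 3, 0 and 1 in libraries 1 to 5 at 10 µg/L. The mean of cga was 0.147 ± 0.116 CPM at 10 µg/L (SD, n = 5) and 0.266 ± 0.381 CPM in controls (SD, n = 4), and the groups overlapped at every dose. Two-sided exact permutation tests of mean CPM against control, run on the 4 hormone genes at 3 doses after the counts had been seen, gave p-values of 0.214 to 1 before any adjustment. The smallest p that these tests allow is 0.0286 at 0.1 and 1 µg/L and 0.00794 at 10 µg/L. With every gene kept regardless of counts, the lowest unadjusted edgeR p among prl, smtlb and cga was 0.0969, for cga at 1 µg/L.

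The balance of the hormones within a library was compared as the log2 ratio of (reads + 0.5) to gh1. This ratio uses no scaling factor, but where reads are few or 0 the added 0.5 makes it depend on sequencing depth. The log2 ratio of cga to gh1 averaged -4.79 ± 1.45 at 1 µg/L and -3.66 ± 1.56 in controls (SD, n = 4 each), with a two-sided exact permutation p of 0.257. The log2 ratio of smtlb to gh1 averaged -4.40 ± 0.962 at 10 µg/L (SD, n = 5) and -3.55 ± 2.08 in controls (SD, n = 4), with an exact permutation p of 0.437. The log2 ratio of prl to gh1 averaged -5.82 ± 0.563 at 10 µg/L (SD, n = 5) and -4.87 ± 2.38 in controls (SD, n = 4), with an exact permutation p of 0.548. Over all 9 ratios and doses the exact permutation p ran from 0.257 to 0.886 and the adjusted p from 0.707 to 0.886. A single ratio could not have passed this adjustment, since the smallest exact permutation p is 0.0286 at 0.1 and 1 µg/L and 0.00794 at 10 µg/L before it, and where a hormone had 0 reads its ratio follows gh1 alone. Ratios with smtla were not analysed here.

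Summed over 12 genes listed as pituitary hormones (the 4 above and the 8 others measured), 34 to 137 reads per library were found. gh1 took 65.4, 55.2, 56.5, 79.6 and 69.7% of them in libraries 1 to 5 at 10 µg/L, against 47.2, 45.9, 43.0 and 50.6% in control libraries 1, 3, 4 and 5. These shares did not overlap. At 0.1 µg/L the share was 40.0, 35.3 and 49.1%, and at 1 µg/L it was 36.7, 18.0, 38.6 and 63.5% in libraries 1, 2, 4 and 5, the last again being library 5. gh1 itself overlapped with control at 10 µg/L. Reads of the other hormones were 18, 39, 20, 20 and 20 in libraries 1 to 5 at 10 µg/L. In control libraries 1, 3, 4 and 5 they were 19, 20, 61 and 40. prl2 had the most of these other reads, 166 over the 16 libraries. In RNA from larvae with no dissection named, the organ in which prl2 or another listed gene was expressed is not visible. Of all single genes, 2.32% had every library at 10 µg/L above every control. The share of gh1 is given as a description with no test, since it was computed after gh1 had been seen. Beside it, prl2 had a log2 fold change of -0.88 at 10 µg/L over control (SE 0.58, edgeR adjusted p = 0.780) and pomcb of -0.43 (SE 0.73, edgeR adjusted p = 0.976), and neither was called.

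**Figure D3:**
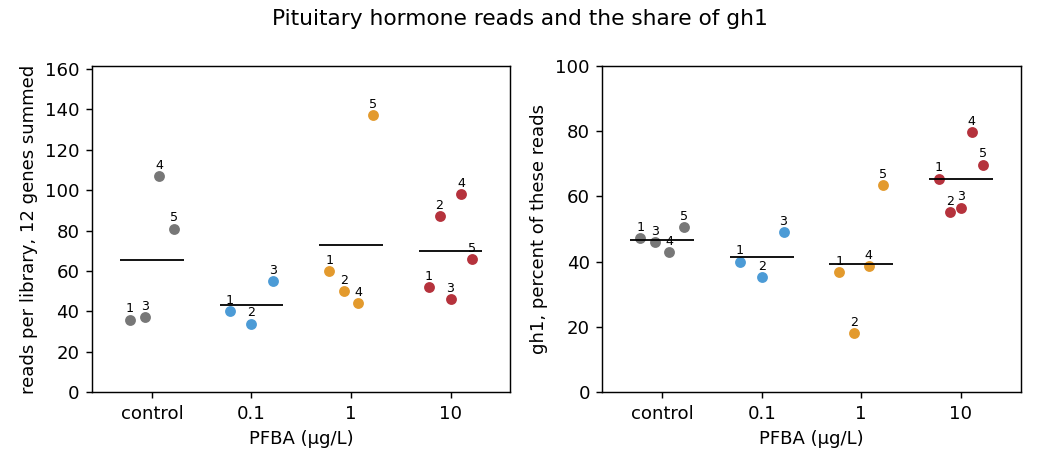
Left, reads summed over 12 genes listed as pituitary hormones in each library. Right, the percent of these reads that came from gh1, by PFBA dose, with library numbers and group means as bars. The 5 libraries at 10 µg/L lie between 55.2 and 79.6%, above the control libraries at 43.0 to 50.6%. The share was not tested.

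Of 6 pairs of hormone genes, none had a correlation across the 16 libraries that passed adjustment. Of these pairs, prl and cga had the largest coefficient in either direction, a Pearson r of -0.51 on log2 CPM (permutation p = 0.0438, adjusted over the pairs 0.263) and a Spearman rho of -0.36 (permutation p = 0.165). The r of prl and cga was -0.40 without the 2 libraries farthest from the median of prl and -0.48 within groups. smtlb and cga had an r of 0.41 (permutation p = 0.114, adjusted 0.323; rho 0.30, permutation p = 0.255), and gh1 had an r of -0.16 to 0.18 with the other 3. Among 14256 genes of at least 1 CPM, those whose log2 CPM followed gh1 most closely over the 16 libraries were washc3 (r = 0.84), tpcn1 (0.82), dclk1a (0.82), chsy1 (0.81) and slc16a9b (0.78). The closest for prl was tmem47 (0.84), for smtlb kcnh1b (0.74) and for cga anxa13l (0.79), all 3 resting on few reads. These coefficients were picked as the highest of many and are descriptions.

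The receptors through which these hormones act differed in level within each pair of paralogs. prlra, a prolactin receptor, averaged 11.6 CPM per kilobase, against 0.425 CPM per kilobase for its paralog prlrb. ghrb, a growth hormone receptor, averaged 8.90 CPM per kilobase, against 0.423 CPM per kilobase for ghra. prlra held 92.0, 84.6, 130 and 154 CPM in control libraries 1, 3, 4 and 5, and 62.2, 68.9 and 102 CPM in libraries 1 to 3 at 0.1 µg/L. prlra held 29.7, 38.5, 27.7 and 105 CPM in libraries 1, 2, 4 and 5 at 1 µg/L, and 39.5, 74.7, 87.2, 22.8 and 48.1 CPM in libraries 1 to 5 at 10 µg/L. Of the 1 µg/L libraries, 1, 2 and 4 lay below every control, library 5 lay among the controls, and the 10 µg/L libraries overlapped with control by 1 library. The log2 fold change of prlra over control was -0.57 at 0.1 µg/L (SE 0.46, edgeR adjusted p = 0.462), -1.20 at 1 µg/L (SE 0.43, edgeR adjusted p = 0.856) and -1.08 at 10 µg/L (SE 0.40, edgeR adjusted p = 0.410). Without library 5 the value at 1 µg/L was -1.85 and passed the test (edgeR adjusted p = 0.0340), in a fit that called 105 of 19026 genes at that dose. Among 16 fits that left out 1 library, it was the only one in which prlra at 1 µg/L over control passed.

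Of the Jak-Stat genes, socs3a, which encodes a suppressor of cytokine signalling through Jak kinases, differed among the 4 groups by the F test (edgeR adjusted p = 0.0196). socs3a held 52.0, 40.7, 48.6 and 54.5 CPM in control libraries 1, 3, 4 and 5, and 46.2, 53.1 and 49.4 CPM in libraries 1 to 3 at 0.1 µg/L. It held 12.3, 9.64, 19.3 and 34.5 CPM in libraries 1, 2, 4 and 5 at 1 µg/L, and 20.6, 17.8, 24.9, 19.1 and 24.5 CPM in libraries 1 to 5 at 10 µg/L. Every library at 1 and 10 µg/L lay below every control. Taken dose by dose, such a separation held for 2.65% and 2.83% of all genes, and the share with it at both doses was not computed. The log2 fold change of socs3a over control was -1.37 at 1 µg/L (SE 0.29, edgeR adjusted p = 0.140) and -1.19 at 10 µg/L (SE 0.27, edgeR adjusted p = 0.0721). Neither was called by the edgeR test with all libraries, but both were without library 5 at 1 µg/L (edgeR adjusted p = 0.000396 and 0.00421). The 10 µg/L value was also called without library 2 at 1 µg/L (edgeR adjusted p = 0.0393). DESeq2 called socs3a at both doses (adjusted p = 0.00470 and 0.00625), as did limma-voom (adjusted p = 0.0250 and 0.0337), and the authors' deposited table gave adjusted p-values of 0.0182 and 8.25e-09. socs1a, of the same family, also passed the F test (edgeR adjusted p = 0.0394), which called 2.34% of all genes. Means of socs1a were 12.9 ± 1.37 CPM in controls (SD, n = 4), 19.9 ± 4.84 CPM at 0.1 µg/L (SD, n = 3), 8.80 ± 1.05 CPM at 1 µg/L (SD, n = 4) and 11.7 ± 2.10 CPM at 10 µg/L (SD, n = 5). That F test of socs1a passed in 4 of the 16 fits that left out 1 library, with edgeR adjusted p-values of 0.00165 to 0.226, and that of socs3a in 14 of 16, the exceptions being the fits without library 2 of the 0.1 µg/L or of the 10 µg/L group (edgeR adjusted p = 0.0656 and 0.0517). The clock gene nr1d1 was low in the libraries at 10 µg/L and in 3 of 4 at 1 µg/L, as given above, and library 5 at 1 µg/L had the highest socs3a of its group. Of 22 clock genes tested, edgeR called 0 at 0.1 µg/L, 2 at 1 µg/L (both up) and 9 at 10 µg/L (4 up, 5 down). The share of all genes called was 0, 0.0681 and 0.225% at these doses. The part of the clock genes in the differences of prlra and socs3a was not tested.

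**Figure D4:**
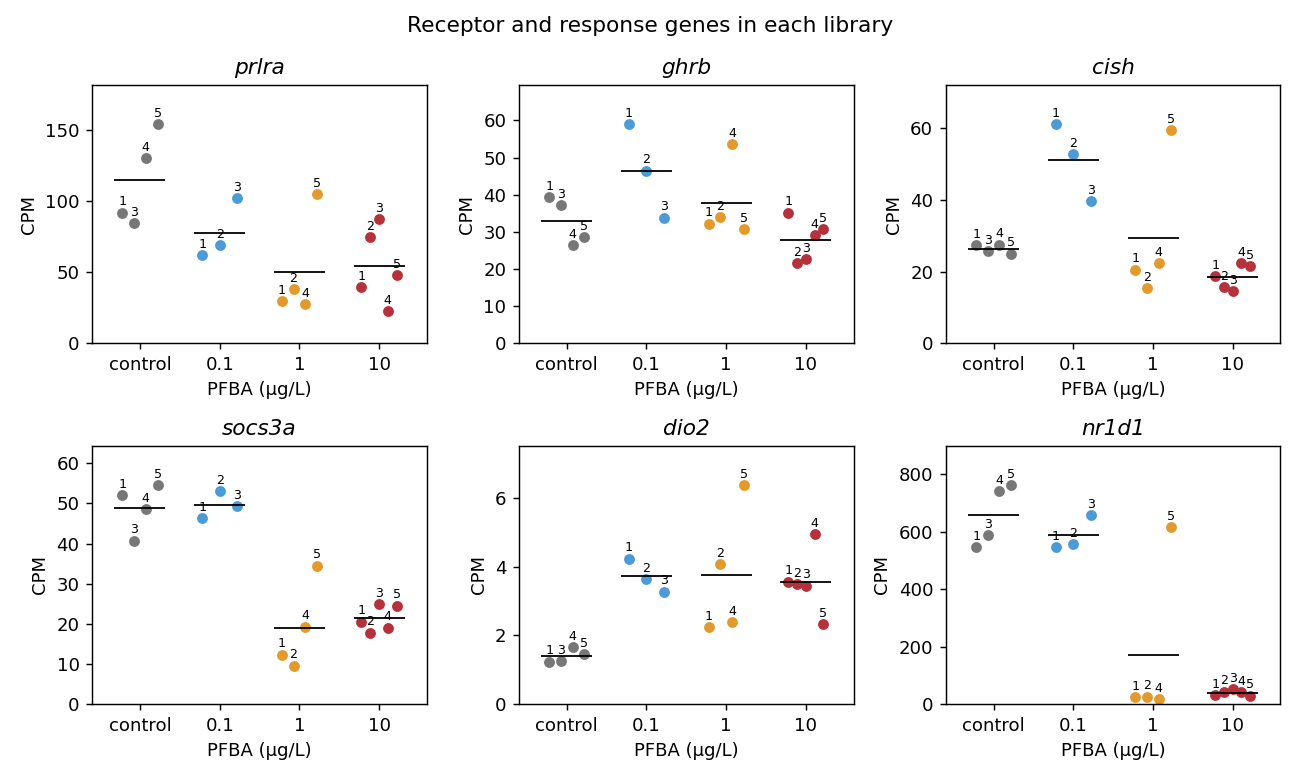
CPM of prlra, ghrb, cish, socs3a, dio2 and the clock gene nr1d1 in each library, by PFBA dose, with library numbers and group means as bars. At 1 µg/L library 5 lies apart from the other 3 in prlra (105 CPM), cish (59.3 CPM) and nr1d1 (617 CPM), and every socs3a library at 1 and 10 µg/L lies below the controls.

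Across the list of receptors and Jak-Stat genes, edgeR called 0 of 14 at any dose against control. At 0.1, 1 and 10 µg/L, 3, 3 and 2 had an unadjusted edgeR p below 0.05. The share of all genes below 0.05 was 21.8, 4.89 and 8.23% at these doses. DESeq2 called cish and socs1a at 0.1 µg/L, with adjusted p-values of 0.0487 and 0.0367, and socs3a at 1 and 10 µg/L. These were 2 of 11 genes of the list with a DESeq2 adjusted p at 0.1 µg/L, and 1 of 13 at 1 and at 10 µg/L. Among all genes DESeq2 called 1380 of 13971, 57 of 18028 and 244 of 17521 at 0.1, 1 and 10 µg/L. Without libraries 1 and 2 at 0.1 µg/L, the DESeq2 log2 fold changes at that dose were 0.60 for cish and 0.15 for socs1a, with adjusted p-values of 1. The median log2 fold change of the list was -0.31 at 0.1 µg/L, 0.07 at 1 µg/L and -0.21 at 10 µg/L, where the median of all genes was -0.09, -0.02 and -0.02. In the growth factor arm, edgeR called 0 of 13 genes of the IGF system at any dose, and DESeq2 called 0 of the 7, 11 and 11 to which it gave an adjusted p at 0.1, 1 and 10 µg/L. At these doses 0, 2 and 1 had an unadjusted edgeR p below 0.05. igf1, the main growth factor under growth hormone control, had a log2 fold change of -0.69 at 0.1 µg/L (SE 0.65), -0.40 at 1 µg/L (SE 0.58) and -0.09 at 10 µg/L (SE 0.55), with edgeR adjusted p-values of 0.528, 0.998 and 0.999. The lowest p among IGF genes was that of igfbp5b, a binding protein, with a log2 fold change of -0.44 at 10 µg/L (SE 0.14, edgeR adjusted p = 0.312).

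Between doses, genes of the receptor and Jak-Stat list did pass the test. Whether growth hormone or prolactin took part in these differences was not tested. At 10 against 0.1 µg/L, cish, a feedback inhibitor induced by Stat5, fell by 1.45 on the log2 scale (SE 0.32, edgeR adjusted p = 0.0140). In the same comparison socs3a fell by 1.21 (SE 0.29, edgeR adjusted p = 0.0180) and socs1a fell by 0.77 (SE 0.21, edgeR adjusted p = 0.0307), where 7.34% of all genes were called lower. At 1 against 0.1 µg/L socs1a fell by 1.17 (SE 0.22, edgeR adjusted p = 0.0401), where 0.136% of all genes were called lower. All of these calls ended without libraries 1 and 2 at 0.1 µg/L (edgeR adjusted p = 0.776 to 1) and without either library alone (edgeR adjusted p = 0.0569 to 0.190). Without library 2 at 10 µg/L the calls of socs3a and socs1a at 10 against 0.1 µg/L also ended (edgeR adjusted p = 0.0515 and 0.0747), as did that of socs1a without library 1 or 3 at 10 µg/L (0.0556 and 0.0588). The call of socs1a at 1 against 0.1 µg/L ended in 11 of the 16 fits that left out 1 library. Over those 16 fits the log2 fold change at 10 against 0.1 µg/L ran from -1.61 to -1.32 for cish and from -1.27 to -1.15 for socs3a, and that of socs1a at 1 against 0.1 µg/L from -1.36 to -1.08. cish held 18.8, 15.7, 14.7, 22.4 and 21.4 CPM in libraries 1 to 5 at 10 µg/L, against 60.9, 52.6 and 39.5 CPM in libraries 1 to 3 at 0.1 µg/L. Control libraries 1, 3, 4 and 5 lay between them, at 27.4, 25.6, 27.5 and 25.0 CPM of cish. Of all genes, 3.57% had every library at 0.1 µg/L above every control, and 2.83% had every library at 10 µg/L below every control. In the 1 µg/L group cish held 15.5 to 22.4 CPM in libraries 1, 2 and 4 and 59.3 CPM in library 5.

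No regulator upstream of the hormones was called against control by edgeR. Of 15 transcription factors of the pituitary lineage tested, 0 were called at any dose. At 0.1, 1 and 10 µg/L, 4, 2 and 3 had an unadjusted edgeR p below 0.05. The share of all genes below 0.05 was 21.8, 4.89 and 8.23% at these doses. DESeq2 called pitx3 at 0.1 µg/L (log2 fold change 0.79, adjusted p = 0.0146), 1 of 14 of these factors with a DESeq2 adjusted p. Among all genes DESeq2 called 1380 of 13971 at that dose. Without libraries 1 and 2 at 0.1 µg/L the DESeq2 log2 fold change of pitx3 was 0.26. The 3 with an unadjusted p below 0.05 and a lower level at 0.1 µg/L were the homeobox genes hesx1, lhx4 and isl1, with log2 fold changes of -1.29, -0.46 and -0.40 and edgeR adjusted p-values of 0.198, 0.214 and 0.226. sox3, which encodes an early neural and pituitary factor, had 0.38 at 10 µg/L (SE 0.15, edgeR adjusted p = 0.449). ascl1a, a proneural factor needed for pituitary cell differentiation in zebrafish, had a log2 fold change of -0.15 at 0.1 µg/L (SE 0.24), 0.64 at 1 µg/L (SE 0.22, edgeR adjusted p = 0.821) and 0.64 at 10 µg/L (SE 0.21, edgeR adjusted p = 0.320). pitx3, a homeobox factor also expressed in lens, had values of 0.73, 0.43 and 0.33 at 0.1, 1 and 10 µg/L (edgeR adjusted p = 0.100, 0.998 and 0.726). Lens markers summed to 1867 to 2786 CPM in controls, 3243 to 9481 CPM at 0.1 µg/L, 1848 to 3637 CPM at 1 µg/L and 2880 to 5570 CPM at 10 µg/L, and their part in the pitx3 values was not tested. At 10 against 0.1 µg/L, neurod4 rose by 0.99, ascl1a by 0.80 and isl1 by 0.73 in log2 units, with adjusted p-values from edgeR of 0.0173, 0.0408 and 0.0220, and 3.26% of all genes were called higher. These calls ended without libraries 1 and 2 at 0.1 µg/L (edgeR adjusted p = 0.964 for each) and without either of them alone (0.0735 to 0.218). The call of isl1 also ended without library 2 at 10 µg/L (edgeR adjusted p = 0.0546), and that of ascl1a in 10 of the 16 fits that left out 1 library. Over those fits the log2 fold change ran from 0.75 to 1.28 for neurod4, 0.61 to 0.84 for isl1 and 0.60 to 0.86 for ascl1a.

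Among 12 hypothalamic regulators tested, edgeR called 0 at any dose. At 0.1, 1 and 10 µg/L, 5, 0 and 0 had an unadjusted edgeR p below 0.05. The share of all genes below 0.05 was 21.8, 4.89 and 8.23% at these doses. DESeq2 called oxt at 0.1 µg/L (log2 fold change 1.38, adjusted p = 0.00924), 1 of 11 regulators with a DESeq2 adjusted p. Among all genes DESeq2 called 1380 of 13971 at that dose. Without libraries 1 and 2 at 0.1 µg/L the DESeq2 log2 fold change of oxt was 0.22. The summed level of all 16 regulators measured, tested or not, was 326 to 365 CPM in controls, 339 to 478 CPM at 0.1 µg/L, 325 to 435 CPM at 1 µg/L and 338 to 449 CPM at 10 µg/L. oxt, which encodes the fish oxytocin precursor, had the lowest p of the list, with a log2 fold change of 1.31 at 0.1 µg/L (SE 0.35, edgeR adjusted p = 0.0864), 0.66 at 1 µg/L and 0.61 at 10 µg/L. The 0.1 µg/L values of oxt were 33.1 and 18.6 CPM in libraries 1 and 2 and 9.48 CPM in library 3, against 7.18, 11.4, 7.82 and 6.35 CPM in control libraries 1, 3, 4 and 5. galn, which encodes the neuropeptide galanin, had a log2 fold change of 0.99 at 0.1 µg/L (SE 0.37, edgeR adjusted p = 0.161). crhb, which encodes corticotropin-releasing hormone, had 0.39 at 10 µg/L (SE 0.19, edgeR adjusted p = 0.629). trh, which encodes thyrotropin-releasing hormone, had log2 fold changes of 0.46 at 0.1 µg/L, 0.17 at 1 µg/L and 0.34 at 10 µg/L. sst1.1, which encodes a somatostatin that restrains growth hormone release, had a log2 fold change of 0.46 at 1 µg/L (SE 0.24, edgeR adjusted p = 0.998). ghrh, which encodes the releasing hormone of growth hormone, was not analysed here. Of 17 receptors for these regulators, edgeR called 0 at any dose, with 0 at an unadjusted p below 0.05. DESeq2 gave an adjusted p to 6, 13 and 12 of them at 0.1, 1 and 10 µg/L and called 0. The lowest p among these receptors was that of trhr2, a receptor for thyrotropin-releasing hormone, with a log2 fold change of -1.90 at 0.1 µg/L (SE 0.91, edgeR adjusted p = 0.231).

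In the thyroid arm, downstream of the hormone that cga helps to form, edgeR called 0 of 7 genes against control. At 0.1, 1 and 10 µg/L, 2, 1 and 1 had an unadjusted edgeR p below 0.05. The share of all genes below 0.05 was 21.8, 4.89 and 8.23% at these doses. dio2, the deiodinase that activates thyroid hormone, held 1.24, 1.26, 1.66 and 1.45 CPM in control libraries 1, 3, 4 and 5, and 4.23, 3.63 and 3.27 CPM in libraries 1 to 3 at 0.1 µg/L. It held 2.25, 4.06, 2.39 and 6.36 CPM in libraries 1, 2, 4 and 5 at 1 µg/L, and 3.56, 3.49, 3.44, 4.95 and 2.33 CPM in libraries 1 to 5 at 10 µg/L. Every exposed library lay above every control. Taken dose by dose, such a separation held for 3.57% of all genes at 0.1 µg/L, 2.8% at 1 µg/L and 2.32% at 10 µg/L. The share of genes with it at all 3 doses was not computed. The log2 fold change of dio2 over control was 1.39 at 0.1 µg/L (SE 0.38, edgeR adjusted p = 0.0864), 1.42 at 1 µg/L (SE 0.36, edgeR adjusted p = 0.354) and 1.33 at 10 µg/L (SE 0.35, edgeR adjusted p = 0.153). The 0.1 µg/L value passed without library 3 at that dose (edgeR adjusted p = 0.0152). That fit kept only libraries 1 and 2 of the dose, and it called 6256 of 19530 genes. Without library 5 at 1 µg/L the 1 µg/L value was 1.04 (edgeR adjusted p = 0.388). The comparisons share the control libraries. DESeq2 called dio2 at all 3 doses, with adjusted p-values of 0.0120, 0.0441 and 0.0178 at 0.1, 1 and 10 µg/L. The DESeq2 calls among all genes were 1380 of 13971, 57 of 18028 and 244 of 17521 at these doses. The authors' deposited adjusted p-values of dio2 were 0.0864 and 0.00577 at 1 and 10 µg/L. At 0.1 µg/L the authors' unadjusted p for dio2 was 0.000365. The deposited adjusted value there exceeds that of prlra (0.281), whose unadjusted p was higher (0.0935), so it is not read as a test result. Without libraries 1 and 2 at 0.1 µg/L, DESeq2 adjusted p-values of dio2 were 1, 0.0518 and 0.0203 at 0.1, 1 and 10 µg/L, with log2 fold changes of 1.23, 1.43 and 1.36.

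**Figure D5:**
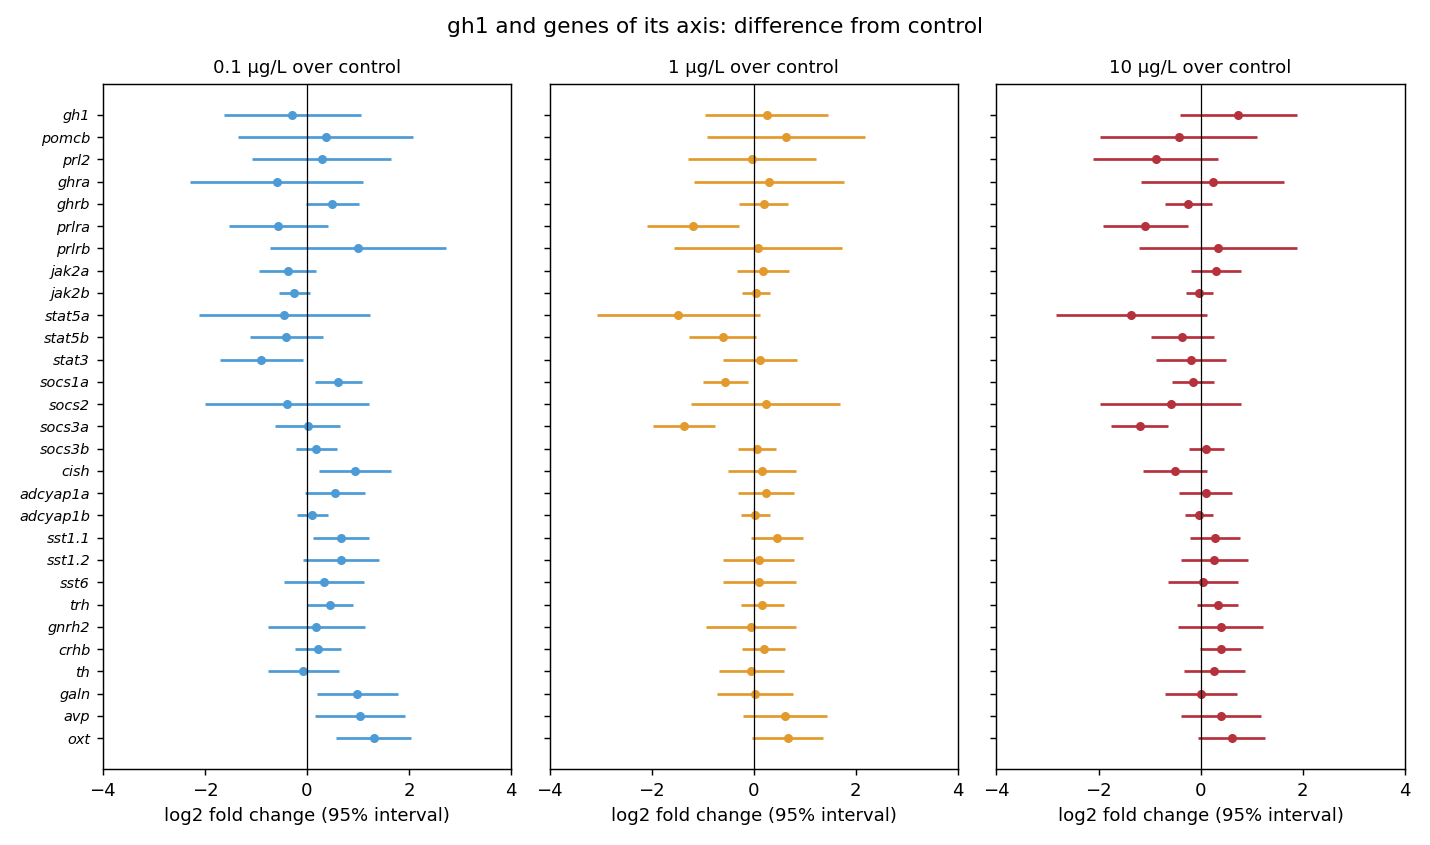
Log2 fold change over control with its 95% interval from the edgeR fit, at 0.1, 1 and 10 µg/L. The genes are gh1, other genes listed as pituitary hormones, receptors, Jak-Stat genes and hypothalamic regulators. The gh1 intervals cross 0 in all 3 panels, with gh1 at -0.28, 0.25 and 0.74, and socs3a lies at -1.37 and -1.19 at 1 and 10 µg/L.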

How the data were processed

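Raw counts per gene, as deposited by the authors, came in 3 tables, 1 per dose, each repeating the control libraries. Per the submitters' processing notes, fastp, HISAT2, featureCounts, DESeq2 and the build GRCz11 were used. The sources used here give no versions, annotation release or strand setting. The tables also hold the authors' deposited log2 fold changes, p-values and adjusted p-values. The tables list 24975, 25272 and 25531 genes (0.1, 1 and 10 µg/L), each listed gene with at least 2 reads. They were joined to 26183 genes, 24560 of them in all 3 tables, and 10528 missing cells were filled with 0. A further 48 columns of normalized values and FPKM were not used. Control and 1 µg/L columns carry numbers that differ from the sample titles. They were matched to groups only, and libraries are called by the number in the column name.

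Genes were kept by filterByExpr (minimum count 10), which left 19092. All 16 libraries were fitted together (12 residual degrees of freedom) with TMM scaling and the quasi-likelihood F test of edgeR 4.0.16 in R 4.3.3, with Benjamini-Hochberg adjustment over all genes tested and a threshold of 0.05. CPM uses the same scaling. Correlations used log2 CPM with a prior count of 2 and 100000 permutations, ratios a pseudocount of 0.5. Scripts were tested on simulated data. DESeq2 1.42.0 and limma-voom (limma 3.58.1), other scalings, no filter, fits of only 2 groups, a replicate block and fits without libraries served as alternatives. Genes were named from the members, the pituitary, receptor and hypothalamic lists, the called genes, the 2 of lowest p per list and dose, and the 5 nearest in correlation. Not all of these are described. The members and gene lists were chosen with earlier results of these data known. Of 235 symbols in the lists, 216 were matched by name, and the rest were not analysed here. No sequence table or genome was used, so no sequences are printed. Counts limit the precision, and floors cover counting error only.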

Additional observations from a re-analysis of the deposited data

Results flagged for a closer look

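In 33 groups of 4 or 5 libraries, each checked for a lowest or highest value far from the others, 6 held such a value. The limit used is one that chance passes in about 1 in 20 groups of normally distributed values, which low counts such as those of prl are not, and 3 of the 6 values came from library 5 at 1 µg/L. gh1 was at 6.84 CPM in library 5 at 1 µg/L, with the nearest library of that dose at 1.71 CPM. gh1 was also far from its group in library 4 at 10 µg/L, at 7.02 CPM with the nearest at 3.72 CPM. prl was at 0.445 CPM in control library 3 and at 0 in the other control libraries.

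The receptors and feedback genes held the rest. Library 5 at 1 µg/L had 105 CPM of the prolactin receptor gene prlra, with 38.5 CPM in the nearest library, and 59.3 CPM of cish, with 22.4 CPM in the nearest. Library 4 at 1 µg/L had 53.7 CPM of the growth hormone receptor gene ghrb, with 34.0 CPM in the nearest.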

How the results depend on the processing

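gh1 was called in no comparison under any alternative run. prl, smtlb and cga could be called only where a fit gave them an adjusted p, as did the fit without the filter on low counts. They were not called there. DESeq2 left the adjusted p undefined for gh1 at 0.1 µg/L and for prl, smtlb and cga at every dose. The log2 fold change of gh1 at 10 µg/L over control stayed positive, from 0.43 to 0.97 with 1 library left out. At 0.1 µg/L it ran from -0.49 to -0.03 with 1 library left out and was 0.066 without libraries 1 and 2. At 1 µg/L it was -0.048 with limma-voom and ran from -0.78 (without library 5) to 0.54. For gh1 at 1 against 0.1 µg/L the range was -0.50 to 0.82. socs3a at 0.1 µg/L over control was -0.41 with scaling by library size only and ran from -0.06 to 0.093 with 1 library left out. With 1 library left out, the difference from control in the log2 ratio to gh1 ran from -0.34 to 1.91 for prl at 0.1 µg/L, -1.51 to 0.19 for prl at 10 µg/L, -1.42 to 0.80 for smtlb at 1 µg/L and -1.19 to 0.022 for cga at 0.1 µg/L. The cause was not tested.

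Scaling by library size only moved the median log2 fold change of all genes to -0.50 at 0.1 µg/L over control, 0.46 at 10 against 0.1 µg/L and 0.39 at 1 against 0.1 µg/L, where it was -0.09, 0.08 and 0.03. DESeq2 called 3325 genes at 10 against 0.1 µg/L and 1439 at 1 against 0.1 µg/L, where edgeR called 2025 and 37. No gene was called by edgeR in either comparison without libraries 1 and 2 at 0.1 µg/L, which leaves 1 library at that dose, assumed to vary like the other groups. Numbers from the labels could be matched for the 0.1 and 10 µg/L libraries only. There the deviations of same-numbered libraries from their group means had correlations of -0.26, -0.11 and -0.22. Pairs with unlike numbers ran from -0.31 to 0.32. With 3 libraries at 0.1 µg/L, these values cannot show whether same-numbered libraries shared more than the number. A replicate block on the number in a fit of those 2 groups left 2 residual degrees of freedom and called 0 genes. There gh1 was 0.66 (edgeR adjusted p = 0.624). Added after the results were seen, a replicate block on the numbers in the column names over all 16 libraries called 0, 6 and 8 genes at 0.1, 1 and 10 µg/L over control, 544 at 10 against 0.1 µg/L and 18 at 1 against 0.1 µg/L. With it gh1 was 0.48 at 0.1 µg/L over control and -0.34 at 1 against 0.1 µg/L. DESeq2 without libraries 1 and 2 at 0.1 µg/L, also added, gave gh1 0.048 at 0.1 µg/L over control and called 1 gene there. Ratios and pairs with smtla were not run, so p-values were adjusted over 9 ratio tests and 6 pairs.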

Other observations

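Genes of cells on which these hormones are known to act in fish were tested in the same fit. Of 11 genes of ionocytes, the cells that take up ions under prolactin, edgeR called 0 at any dose. At 0.1, 1 and 10 µg/L, 2, 0 and 1 had an unadjusted edgeR p below 0.05. The share of all genes below 0.05 was 21.8, 4.89 and 8.23% at these doses. DESeq2 gave an adjusted p to 5, 9 and 8 of the ionocyte genes and called 0. rhcgb, an ammonia transporter gene, had a log2 fold change of -0.95 at 10 µg/L over control (SE 0.41, edgeR adjusted p = 0.535). clcn2c and ca15a, also of this list, had 1.42 and 1.67 at 0.1 µg/L (edgeR adjusted p = 0.162 and 0.193). At 10 µg/L clcn2c had 0.82, and the median of the list was -0.12. Of 9 pigment cell genes, edgeR called 0 at any dose, with 1, 2 and 1 at an unadjusted p below 0.05, and DESeq2 called 0 of the 6, 9 and 9 to which it gave an adjusted p. pnp4a, a purine gene marking reflective pigment cells, had a log2 fold change of -1.12 at 1 µg/L (SE 0.39, edgeR adjusted p = 0.848). gch2, a pteridine synthesis gene of yellow pigment cells, had -0.87 at 10 µg/L (SE 0.33, edgeR adjusted p = 0.442). pmela, of the same list, had 0.66 at 0.1 µg/L (SE 0.25, edgeR adjusted p = 0.163). The medians of the pigment cell list were 0.18, -0.29 and -0.04 at 0.1, 1 and 10 µg/L.

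Of 11 genes of the neuroendocrine secretory pathway, which packages peptide hormones into granules, edgeR called 0 at any dose. At 0.1, 1 and 10 µg/L, 3, 2 and 2 had an unadjusted edgeR p below 0.05. Of these, 2, 1 and 1 were higher than control, and 1 was lower at each dose. The share of all genes below 0.05 was 21.8, 4.89 and 8.23% at these doses. DESeq2 called chga and scg5 at 0.1 µg/L (adjusted p = 0.0152 and 0.00411), with log2 fold changes of 0.73 and 0.91. These were 2 of the 11 genes, and among all genes DESeq2 called 1380 of 13971 at 0.1 µg/L. Without libraries 1 and 2 at that dose the DESeq2 log2 fold changes were 0.067 for chga and 0.30 for scg5. scg5, a granule protein gene, had a log2 fold change of 0.85 at 0.1 µg/L over control (SE 0.20, edgeR adjusted p = 0.0858). The median of the list at that dose was 0.016. vgf, of the same list, had -0.37 at 1 and at 10 µg/L (edgeR adjusted p = 0.998 and 0.505). pam, also of the list, had 0.38 and 0.32 at these doses (edgeR adjusted p = 0.915 and 0.510).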
